A study of Populus x canadensis with 3 samples.

Results

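The miR159, miR319, miR828 and miR858 families are the plant microRNAs (miRNAs) whose best known targets are MYB and TCP transcription factors. Every sequence of the deposited root table whose name carries one of these numbers was taken, and each distinct sequence was counted once. This gave 23 sequences of 472 in all, 9 of miR159, 9 of miR319, 1 of miR828 and 4 of miR858. The roots came from cuttings of the hybrid poplar Populus × euramericana "Neva", grown in water culture for 60 days, with dilute Hoagland nutrient solution after rooting, and then given para-hydroxybenzoic acid (pHBA), a phenolic acid, for 3 days. The doses were labelled 0, 2 and 4 mML-1, presumably millimolar, and PHBA 0, PHBA 2 and PHBA 4 name the libraries. RNA of a treatment had been pooled before sequencing, so each dose is 1 library, with 1434442, 542913 and 380800 reads on the listed sequences in order of dose. With no replicates, the differences are between libraries only, without p-values, and the intervals cover counting error only. The labels do not say how many plants a pool held.

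In Arabidopsis, miR159 represses the GAMYB-like factors MYB33 and MYB65, and miR319 represses a group of TCP factors that slow cell division and promote maturation of leaves. The mature strands of both families are close relatives in sequence, yet they act largely on different targets. miR828 and miR858 act on R2R3-MYB genes, among them regulators of flavonoid and anthocyanin synthesis, and miR828 can start phased secondary siRNAs. A miRNA is cut from a hairpin as a duplex. One strand usually enters an Argonaute protein and the other is mostly lost.

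The sequences that the results turn on are shown as the table gives them, with T for U, 5′ to 3′, and with bases 2 to 8, the seed, in capitals. The first set holds the mature strands, which carry most of the reads.
ptc-miR159a: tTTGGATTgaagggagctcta
ptc-miR319a: tTGGACTGaagggagctccc
ptc-miR319e_L+1R+1: cTTGGACTgaagggagctcctt
ptc-miR828a: tCTTGCTCaaatgagtattcca
ath-miR858b: tTCGTTGTctgttcgaccttg
The prefix ptc stands for Populus trichocarpa and ath for Arabidopsis thaliana, and L+1R+1 marks 1 extra base at each end against the registered sequence. Prefixes and suffixes name the best match in the miRNA database, so ath-miR858b is a poplar root read with an Arabidopsis name.

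The kinship of miR159 and miR319 is visible in the letters. Placed 1 base in from the start of ptc-miR159a, the 20 nt of ptc-miR319a matched it at 17 of 20 positions. The 3 differences, counted from the 5′ end of ptc-miR159a with its base first, were T7C, T20C and A21C, and they stand in capitals here.
ptc-miR159a: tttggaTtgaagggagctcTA
ptc-miR319a: ttggaCtgaagggagctcCC
Both share the run TGAAGGGAGCTC, which 12 of the 23 members held and 0 of the other 449 sequences of the table held. Because of the 1-base offset, ptc-miR159a and ptc-miR319a have different bases 2 to 8. The longer ptc-miR319e_L+1R+1 starts in the register of miR159, and its seed, TTGGACT, differs from the TTGGATT of miR159a only by T7C. Seed TTGGATT occurred in 4 members, TGGACTG in 3 and TTGGACT in 3, and in no sequence outside the members.

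miR159 was by far the most abundant of the families, and ptc-miR159a carried most of it. ptc-miR159a stood at 6425, 4718 and 9060 normalized reads in the order PHBA 0, PHBA 2, PHBA 4, from 12888, 3649 and 6040 reads. It was the 15th, 18th and 13th most abundant sequence of the 3 libraries. The summed miR159 value was 8606, 6324 and 10850 normalized reads, which is 1.20% (1.19 to 1.22), 0.901% (0.876 to 0.926) and 1.90% (1.86 to 1.94) of listed reads, with Wilson intervals at 95% in brackets. ptc-miR159a made up 74.7%, 74.6% and 83.5% of that sum.

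The other families were more than an order of magnitude lower. miR319 summed to 442, 322 and 498 normalized reads, and ptc-miR319a held 84.9%, 80.7% and 84.3% of it. miR858 summed to 473, 374 and 609, of which ath-miR858b held 93.4%, 93.3% and 93.2%. miR828 was represented by ptc-miR828a alone, at 5.48, 10.3 and 13.5 normalized reads from 11, 8 and 9 reads. A difference between its libraries was not detectable at this depth, since each interval of its ratios holds 1.

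Values were compared for the 10 members whose mean reached 10 normalized reads, 5 of miR159, 3 of miR319 and 2 of miR858. The other 13, among them ptc-miR828a, had at most 23.5 normalized reads in any library, and 11 of them were listed at 0 in at least 1 library. Of the 10, 7 have mature names, 3 of miR159, 2 of miR319 and 2 of miR858, and those of a family are close in sequence. The other 3 are hairpin strands that are not registered as mature miRNAs, written with a capital MIR and p5.

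**Figure D1:**
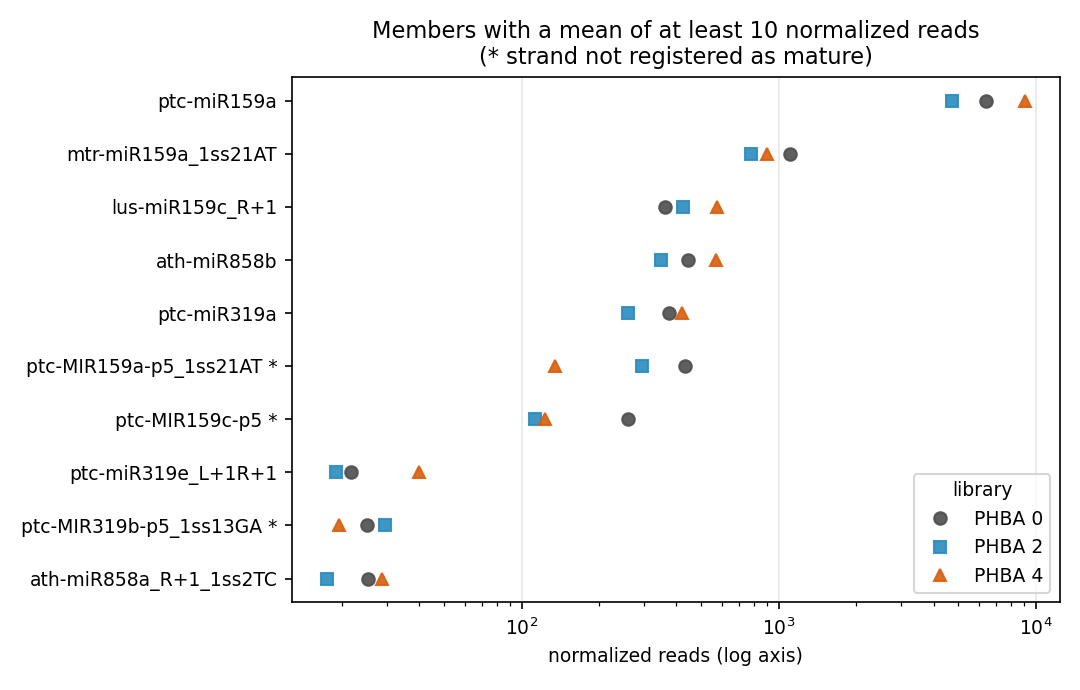
Normalized reads (log axis) of the 10 members with a mean of at least 10, with 1 point per library, PHBA 0 as circles, PHBA 2 as squares and PHBA 4 as triangles; an asterisk marks an unregistered strand. ptc-miR159a stands well above the rest in each library, and the triangle of ptc-MIR159a-p5_1ss21AT, at 135, lies far to the left of its circle, at 430.

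The order of levels below ptc-miR159a was only partly resolved. In PHBA 0, PHBA 2 and PHBA 4 alike, 5 of the 9 ratios between neighbours in the order had a counting interval above 1. In PHBA 0 ath-miR858b (442) and ptc-MIR159a-p5_1ss21AT (430) could not be told apart, with a ratio of 1.03 (0.933 to 1.13), nor could ptc-miR319a (375) and lus-miR159c_R+1 (362), with 1.04 (0.935 to 1.15). In PHBA 4 lus-miR159c_R+1 (575) and ath-miR858b (568) could not be told apart, at 1.01 (0.879 to 1.17). ptc-miR319a then stood 3.11 times (2.45 to 3.99) above ptc-MIR159a-p5_1ss21AT, which had been ahead of it in PHBA 0. ptc-miR319a has 4 entries, while ptc-MIR159a-p5_1ss21AT and lus-miR159c_R+1 have 2 each. How reads were divided between entries is not known, so order and ratios against ptc-miR319a are uncertain beyond counting error.

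At the lower dose the leading mature strand of each of the 3 measurable families was moderately lower than in untreated roots. The summed miR159 value was 1.36-fold lower in PHBA 2 than in PHBA 0 (1.32 to 1.41), miR319 was 1.37-fold lower (1.19 to 1.59) and miR858 was 1.26-fold lower (1.10 to 1.44). ptc-miR159a, the GAMYB regulator, was 1.36-fold lower (1.31 to 1.41). ptc-miR319a, the TCP regulator, went from 375 to 259, 1.45-fold lower (1.23 to 1.70). ath-miR858b went from 442 to 349, 1.27-fold lower (1.10 to 1.46).

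Of the 10 members, 8 were lower in PHBA 2, as were 52.9% of all 289 tested sequences, and 2 were higher. For 7 members the counting interval excluded a ratio of 1, near the 60.6% of all tested sequences. Only ptc-MIR159c-p5 was at least 2-fold lower on the log2(value + 1) scale, 0 were at least 2-fold higher, and 26% of the 289 sequences tested passed 2-fold in either direction (16.3% higher and 9.69% lower). By kind of name, 0 of 7 mature members and 1 of 3 unregistered strands were at least 2-fold lower, against 8.61% of 151 other mature names and 8.55% of 117 other unregistered strands. The median log2 difference of the members was -0.47, against -0.03 for all tested sequences. The members higher in PHBA 2 were lus-miR159c_R+1, at 362 and 423, and ptc-MIR319b-p5_1ss13GA, at 25.1 and 29.3, whose interval holds 1.

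At the higher dose 6 of the 7 mature strands had values above the untreated level, mtr-miR159a_1ss21AT being the exception, as did 50.5% of all tested sequences, while 2 of the 3 opposite strands were at least 2-fold below it. The ratios of ptc-miR319a, 1.12 (0.972 to 1.29), and ath-miR858a_R+1_1ss2TC, 1.13 (0.637 to 1.97), have intervals that hold 1. The summed miR159 value was 1.26-fold higher in PHBA 4 than in PHBA 0 (1.23 to 1.30) and miR858 was 1.29-fold higher (1.14 to 1.45). miR319 had a ratio of 1.13, with an interval of 0.990 to 1.28 that holds 1. ptc-miR159a was 1.41-fold higher (1.37 to 1.45) and ath-miR858b, at 442 and 568, was 1.29-fold higher (1.14 to 1.45). ptc-miR319e_L+1R+1, the miR319 form in the register of miR159, stood at 21.8, 18.96 and 39.9, and its ratio of PHBA 4 to PHBA 0 was 1.84 (1.10 to 3.05).

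No member was at least 2-fold higher in PHBA 4 than in PHBA 0, and 2 of 10 were at least 2-fold lower, where 45% of all tested sequences passed 2-fold (23.9% higher and 21.1% lower). Both are unregistered strands, ptc-MIR159a-p5_1ss21AT and ptc-MIR159c-p5, and 19.7% of the 117 unregistered strands outside the members were as much lower, as were 21.2% of the 151 other mature names. The members' median log2 difference was 0.17, against 0.01 for all. The median was 0.36 over the 7 mature names and -1.07 over the 3 unregistered strands. The counting interval excluded 1 for 7 of the 10, and for 75.1% of all tested sequences.

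The values of PHBA 4 depend on scaling. With equal library totals every log2 difference from PHBA 0 is 0.32 higher, 59.2% of all tested sequences and 7 of 7 mature members are above PHBA 0, and the summed miR159 value is 1.58-fold higher. The ratio of ptc-miR319a becomes 1.4 with an interval above 1. mtr-miR159a_1ss21AT, 1.23-fold lower as deposited (1.13 to 1.35), changes sign to a ratio of 1.01 whose interval holds 1. At least 2-fold higher is then 1 member, ptc-miR319e_L+1R+1, and 1 is lower, ptc-MIR159a-p5_1ss21AT.

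**Figure D2:**
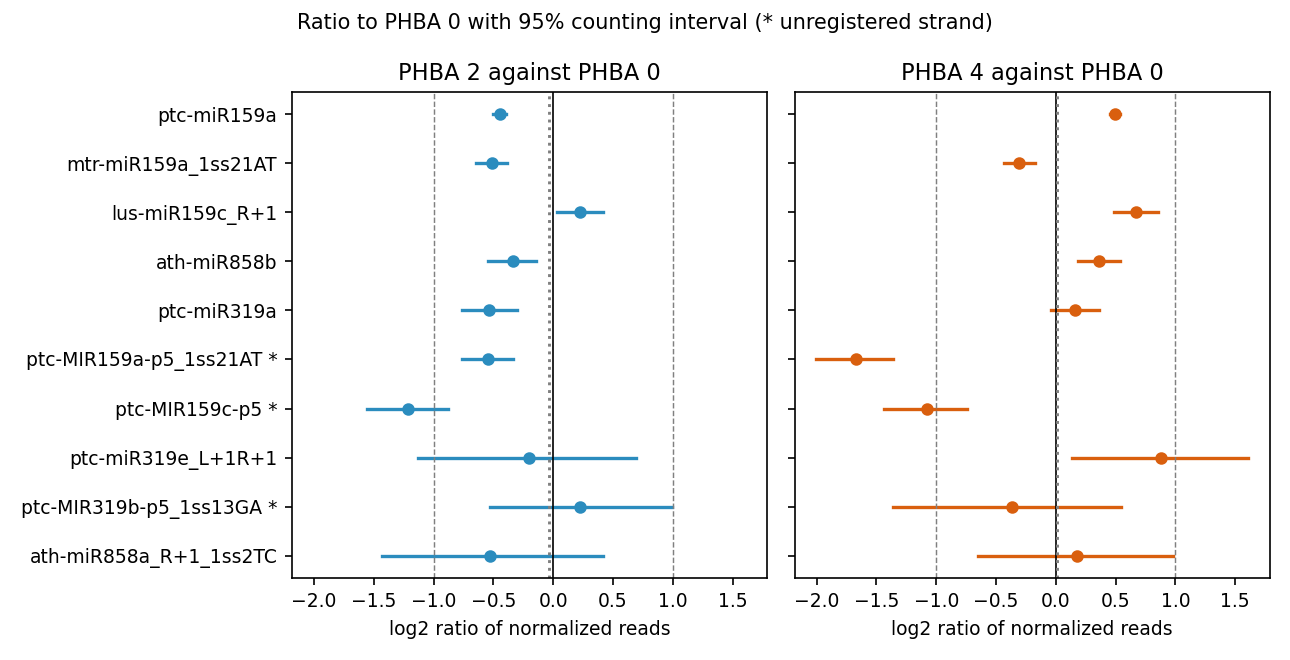
Log2 ratios of normalized reads to PHBA 0 for PHBA 2 (left) and PHBA 4 (right), with 1 point per member and bars for the 95% counting interval; dashed lines mark 2-fold, the dotted line the median of all tested sequences on the log2(value + 1) scale, and an asterisk an unregistered strand. ptc-miR159a, ptc-miR319a and ath-miR858b lie left of 0 at the lower dose and right of 0 at the higher dose, where the bar of ptc-miR319a crosses 0.

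Between the doses all 7 mature names were higher in PHBA 4 than in PHBA 2, where 51.9% of all tested sequences were (61.2% with equal totals). The 7 are related forms of 3 families, not 7 separate miRNAs. For 6 of the 7 the interval excluded 1, as it did for 66.1% of all tested sequences. ptc-miR159a was 1.92-fold higher (1.84 to 2.00), ptc-miR319a 1.62-fold (1.34 to 1.95) and ath-miR858b 1.63-fold (1.39 to 1.91). On the log2(value + 1) scale 1 of 10 members, ptc-miR319e_L+1R+1, was at least 2-fold higher and 1, ptc-MIR159a-p5_1ss21AT, was lower, where 33.6% of all tested sequences passed 2-fold (17.3% higher and 16.3% lower). With equal totals 2 members were higher and 0 lower. Of the unregistered strands outside the members 18.8% were at least 2-fold lower, and of the other mature names 13.2%. A profile lowest in PHBA 2 and highest in PHBA 4 was seen in 5 members, all mature names from miR159 (1), miR319 (2) and miR858 (2), and in 16.3% of all tested sequences. With equal totals it was seen in 6 members and in 20.1% of all. Some of its steps lie within counting error for 3 of the 5, ptc-miR319e_L+1R+1, ath-miR858a_R+1_1ss2TC and ptc-miR319a, whose ratio of PHBA 4 to PHBA 0 was 1.12 (0.972 to 1.29).

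The sequences outside the families whose pair of differences from PHBA 0 was closest to that of ptc-miR159a, among 136 whose mean reached 100 normalized reads, were ptc-miR169u-5p_1ss16TA, ptc-miR396c and ptc-miR477a-3p_1ss13GA. Their distances on the log2(value + 1) scale, over 2 differences from 3 libraries, were 0.06, 0.11 and 0.13. ptc-miR396c stood at 983, 701 and 1493 normalized reads.

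The strands of the MIR159 hairpins are shown with bases 2 to 8 in capitals, because the balance between strands differed between libraries.
ptc-miR159a: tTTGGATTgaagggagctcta
ptc-MIR159a-p5_1ss21AT: aGCTCCTTgaagtccaatagt
ptc-miR159c: aTTGGAGTgaagggagctcga
ptc-MIR159c-p5: gAGCTCTCcccactccatgcc
Folded as a duplex by RNAduplex, the strands of MIR159a formed 15 base pairs, and so did those of MIR159c. The same p5 sequence is also listed under hairpin MIR159b, so its reads cannot be assigned to 1 of the 2 hairpins.

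The p5 strand of MIR159a went down over the doses while its partner went down and then up. ptc-MIR159a-p5_1ss21AT stood at 430, 295 and 135 normalized reads, 3.19-fold lower at the higher dose than in PHBA 0 (2.57 to 4.01). Its share of the reads of both strands, which no library scaling can change, was 6.28% (5.89 to 6.70) untreated, 5.88% (5.18 to 6.67) at the lower dose and 1.47% (1.20 to 1.8) at the higher dose. The intervals of PHBA 0 and PHBA 2 overlap, and that of PHBA 4 lies below both. Put as a ratio, there were 14.9, 16.0 and 67.1 reads of ptc-miR159a for each read of the p5 strand.

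A lower share of the unregistered strand in PHBA 4 was not limited to MIR159a. The ratio of the unregistered to the mature strand was taken in 32 other poplar pairs, matched by name. It was lower in PHBA 4 than in PHBA 0 in 21, with a median log2 change of -0.50 and a range of -3.22 to 2.95. Some pairs join names with different hairpin letters, such as ptc-MIR160d-p3 with ptc-miR160a. The change for MIR159a was -2.17, and 3 of the 32 were at least as low. At the lower dose the median was -0.13, and the change for MIR159a was -0.10.

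Hairpin MIR159c had the opposite balance. ptc-MIR159c-p5 stood at 260, 112 and 123 normalized reads, while the registered mature strand ptc-miR159c had 16.0 and 12.0 in PHBA 0 and PHBA 4 and was listed at 0 in the library between. The unregistered p5 strand thus held 522 of 554 reads in PHBA 0, or 94.2% (92.0 to 95.9), 87 of 87 in PHBA 2, or 100% (95.8 to 100), and 82 of 90 in PHBA 4, or 91.1% (83.4 to 95.4). The share in PHBA 2 and its interval take the listed 0 of ptc-miR159c as a count, though it may stand for a value under a minimum. ptc-MIR159c-p5 was 2.31-fold lower in PHBA 2 than in PHBA 0 (1.84 to 2.94) and 2.12-fold lower in PHBA 4 (1.67 to 2.70), and its values at both doses could not be told apart, with a ratio of 1.09 (0.799 to 1.5). ptc-miR159c differs from ptc-miR159a at 3 bases, T1A, T7G and T20G, counted as above.

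The p5 strands of miR319 came in 2 kinds, shown because they paired with the mature strand to different extents.
ptc-MIR319b-p5_1ss13GA: aGAGCTTTtttcagtccactt
ptc-MIR319d-p5: aGCTGCCGactcattcattca
The first paired with ptc-miR319a over 17 base pairs at -27.5 kcal per mol. The second, listed under 4 hairpins (MIR319c, MIR319d, MIR319f and MIR319g), formed 13 base pairs at -11.8 kcal per mol. No unrelated sequences were folded for comparison, so whether the second is a partner of ptc-miR319a was not tested. ptc-MIR319b-p5_1ss13GA stood at 25.1, 29.3 and 19.5 normalized reads. Its share of reads together with ptc-miR319a was 6.23% (4.75 to 8.12), 10.3% (6.97 to 15.0) and 4.44% (2.61 to 7.44), with intervals of neighbouring doses that overlap. ptc-miR319a has 4 entries and ptc-MIR319b-p5_1ss13GA has 1. How reads were divided between entries is not known, so the size of this share is uncertain beyond its interval. ptc-MIR319d-p5 stood at 11.7 and 2.59 and was listed at 0 in PHBA 4, from 23.5, 2 and 0 reads.

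**Figure D3:**
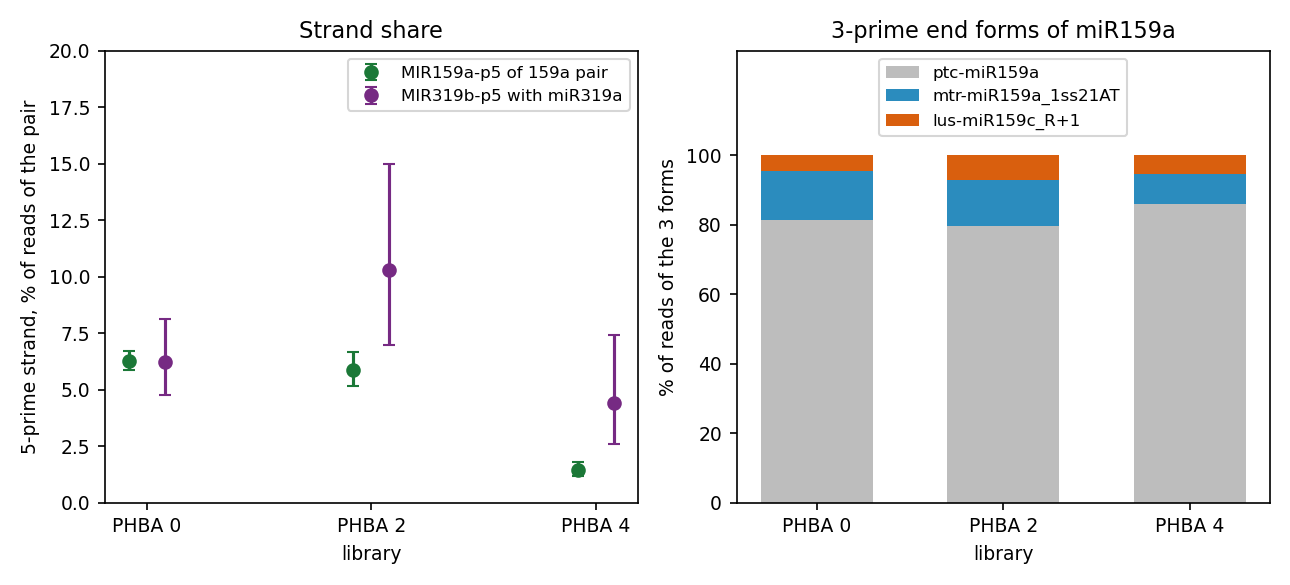
Left, the 5′ strand as a percentage of the reads of both strands for MIR159a and for MIR319b-p5 with miR319a, with Wilson 95% intervals; right, the percentages of the 3 end forms of miR159a, stacked, in each library. The MIR159a point of PHBA 4, at 1.47%, lies apart from 6.28% and 5.88%, and the share of mtr-miR159a_1ss21AT is smallest in PHBA 4, at 8.53%.

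Sequences of miR159a also differed at the 3′ end, shown in capitals.
ptc-miR159a: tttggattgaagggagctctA
mtr-miR159a_1ss21AT: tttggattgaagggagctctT
lus-miR159c_R+1: tttggattgaagggagctctTT
The form with A21T carries a name from Medicago truncatula (mtr), and the 22 nt form with 1 further T a name from Linum usitatissimum (lus). Whether each comes from a gene or from a base added to the end was not tested, since no genome was used. mtr-miR159a_1ss21AT stood at 1109, 776 and 899 normalized reads and lus-miR159c_R+1 at 362, 423 and 575.

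The end forms did not keep a fixed proportion over the doses. Among reads of the 3 forms, ptc-miR159a held 81.4% (80.8 to 82.0), 79.7% (78.5 to 80.9) and 86.0% (85.2 to 86.8). mtr-miR159a_1ss21AT held 14.0%, 13.1% and 8.53% (7.90 to 9.21), and the ratio of ptc-miR159a to it was 5.79 (5.54 to 6.06), 6.08 (5.58 to 6.64) and 10.1 (9.27 to 11.0). Between the T-ending forms, the longer lus-miR159c_R+1 held 24.6% (23.1 to 26.2), 35.2% (32.2 to 38.4) and 39.1% (36.1 to 42.2). lus-miR159c_R+1 was the 1 member of the 10 whose level went up at both steps, 1.17-fold at the first (1.02 to 1.33) and 1.36-fold at the second (1.17 to 1.58).

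For the forms of miR858 all 3 intervals overlap. ath-miR858a_R+1_1ss2TC starts 1 base before ath-miR858b and differs from it by T1C, counted from the 5′ end of ath-miR858b. It stood at 25.2, 17.5 and 28.5 normalized reads and held 5.34% (4.08 to 6.97), 4.93% (2.96 to 8.10) and 4.77% (3.08 to 7.34) of reads of both. ptc-miR319a held 5.52% (5.15 to 5.92), 5.22% (4.56 to 5.97) and 4.43% (3.95 to 4.97) of reads of ptc-miR319a and ptc-miR159a, and the intervals of PHBA 0 and PHBA 4 do not overlap. In both pairs the sequences differ in number of entries, so the size of these shares has the same limit as for ptc-MIR319b-p5_1ss13GA. Of the members' normalized reads, those starting with T, the base that AGO1 prefers, made up 91.9%, 93.4% and 97.0%, while over all sequences they made up 91.4%, 90.5% and 85.9%.

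Some rare members were listed in PHBA 4 alone, and these include names whose letters are unlike the mature strands of the family.
ptc-miR159d_R-1_1ss20CT: cTTGGATTgaagggagctct
ppe-MIR159-p3_2ss7TG19AT: tAGGCTGGtggcttgcatt
mdm-MIR858-p3_2ss4AG17CG: tAAGTTGGatgtgaaagc
They stood at 23.5, 22.5 and 12.8 normalized reads in PHBA 4, from 15.7, 15 and 8.5 reads, and were listed at 0 in PHBA 0 and PHBA 2. The first matched ptc-miR159a at 19 of 20 positions. The second, of 19 nt with a name from peach (ppe), matched it at 9 of 19. The third, of 18 nt with a name from apple (mdm), matched ath-miR858b at 10 of 18. It is also listed as mdm-MIR858-p5_2ss4AG17CG, so its names do not settle which strand it would be. ptc-MIR159a-p5_1ss21AT matched ptc-miR159a at only 7 of 21, but it is the opposite strand of that hairpin. ppe-MIR159-p3_2ss7TG19AT carries a p3 name, so the low match of a p5 strand is no guide to it. Whether the short sequences belong to these families was not tested. Sequences under 20 nt held 0.329%, 0.670% and 3.60% of all normalized reads at the 3 doses, and 14 of the 25 sequences of the table listed in PHBA 4 alone were under 20 nt. The part of these short reads in the values of the short members was not tested.

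The remaining rare members are long or shifted forms, or differ from another member only at the 3′ end. cpa-miR159a_L+4, of 25 nt, holds all 21 bases of ptc-miR159a after 4 further ones and was listed in PHBA 0 alone, at 4.49 normalized reads. The 3 forms of miR319 with names from soybean (gma) and grape (vvi), of 22 to 24 nt, stood at 1.5 to 3.88 normalized reads where they were above 0, and were listed at 0 in PHBA 4. ptc-miR319e stood at 12.2 in PHBA 4 and 0.436 in PHBA 0 and was listed at 0 in PHBA 2. ppe-MIR858-p3_2ss18AG19CG, at 5.98 and 7.76 normalized reads in PHBA 0 and PHBA 2 and listed at 0 in PHBA 4, overlaps ath-miR858b by 16 identical bases. ptc-MIR319a-p5_1ss9CT, at 3.16, 3.45 and 6.75, is ptc-MIR319b-p5_1ss13GA without its last base.

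Bases 2 to 8 of ath-miR858b, TCGTTGT, were also found in 15 sequences outside the members, all 15 named miR6300, one of the names listed here as doubtful miRNAs that may be fragments of other RNAs. Over the whole length gma-miR6300 matched ath-miR858b at 9 of 18 aligned positions. gma-miR6300 stood at 785, 1762 and 11407 normalized reads, while ath-miR858b stood at 442, 349 and 568. The list of doubtful names held 0.676%, 2.08% and 3.97% of normalized reads, and of its 25 tested sequences 20 were at least 2-fold higher than in PHBA 0 at each dose, against 16.3% of all tested sequences in PHBA 2 and 23.9% in PHBA 4.

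A list of 3 families that in Arabidopsis are tied to the same circuits was set beside the members. It holds miR164 and miR396, whose genes TCP factors can activate, and miR156, which has been linked to MYB33. Of its 32 tested sequences, 0 were at least 2-fold higher and 3 lower in PHBA 2 than in PHBA 0, with a median log2 difference of -0.33, where 16.3% of all tested sequences were higher and 9.69% lower. In PHBA 4 against PHBA 0, 11 were lower and 2 higher, at a median of -0.60, where 21.1% of all were lower and 23.9% higher. The medians in PHBA 4 were -0.53 for miR156, -0.76 for miR164 and -0.47 for miR396, all over mature names and unregistered strands together, as is the 0.17 of the 10 members. Sums gave another picture for miR156, whose normalized total over tested sequences was 19566, 28073 and 34755, while miR164 summed to 4152, 2537 and 2087 and miR396 to 24577, 13779 and 12324.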

How the data were processed

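Small RNA libraries were made from pooled total RNA of poplar roots, 1 library per dose. The submitters' processing notes name bcl2fastq 1.8.4; the sources used here give no aligner, counting tool, miRNA database or genome build. The authors deposited an expected count per sequence, which need not be whole, and a normalized signal, which is that count times 0.498, 1.29 and 1.5 (PHBA 0, PHBA 2, PHBA 4); how these constants were chosen is not stated. Reads on the 472 distinct sequences came to 1434442, 542913 and 380800, fewest in PHBA 4. On the 23 members they came to 19111, 5437 and 7980, fewest in PHBA 2. Sequences with several entries repeat the same value and were counted once. How reads were divided between entries is not known, so ratios and shares between sequences with different numbers of entries are uncertain in size. A 0 may stand for a value under a minimum, so no fold is given against it.

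A sequence was tested at a mean of at least 10 normalized reads (289 sequences) and called 2-fold when log2(value + 1) differed by at least 1. Printed folds are ratios of deposited values without the pseudocount; 95% intervals are exact conditional binomial (Clopper-Pearson), for which counts were rounded, and those of shares are Wilson intervals. Without molecular identifiers, both cover counting error alone. The calculation was tested on simulated data. Members with a mean of at least 10 are named with values, and the most alike are the 3 closest sequences with a mean of at least 100. Rare members, hairpin pairs and end forms were chosen for naming after their values were seen. Members and lists were chosen with earlier results of these data known. Duplexes were computed with RNAduplex 2.7.2, with scipy 1.17.1 for intervals. No genome was used. Other scalings, minimums, pseudocounts and ways of counting entries were tried, 1 scaling of them chosen after seeing the data.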

Additional observations from a re-analysis of the deposited data

How the results depend on the processing

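Equal totals, median-of-ratios factors, every entry counted, unregistered strands left out, other minimums and other pseudocounts were tried for each of the 3 dose comparisons. The summed miR159 value, recomputed with the scalings, with every entry counted and without unregistered strands, kept its direction in each. Its log2 difference between PHBA 4 and PHBA 0 was 0.33 as deposited, 0.66 with equal totals, 0.29 with median-of-ratios factors and 0.42 without unregistered strands. Between PHBA 4 and PHBA 2 it was 0.78, 1.08 with equal totals and 0.84 without unregistered strands. With equal totals over sequences of at least 20 nt without fragment names, an alternative chosen after seeing the data, it was -0.39 for PHBA 2 against PHBA 0, 0.73 for PHBA 4 against PHBA 0 and 1.12 for PHBA 4 against PHBA 2. Without a minimum on the mean, 5, 13 and 11 of the 23 members passed 2-fold in the 3 comparisons, against 1, 2 and 2 of 10, because rare members listed at 0 in a library then enter. For PHBA 4 against PHBA 2 the count was 1 with median-of-ratios factors, with a minimum of 100 and with a pseudocount of 10, 4 with every entry counted, and 5, all higher, with the alternative chosen after seeing the data. Of 30 differences of single members, 30 stayed within their counting interval with median-of-ratios factors, and with equal totals 19 did, 10 left it and 1 changed sign, mtr-miR159a_1ss21AT in PHBA 4 against PHBA 0, from -0.30 to 0.021. With median-of-ratios factors its interval in PHBA 4 against PHBA 2 came to hold a ratio of 1. Equal totals change each log2 difference by the factor of the library itself, 0.03 in PHBA 2 and 0.32 in PHBA 4; for the other alternatives the cause was not tested. No paired analysis was possible because each dose is 1 library. Depth limits the members under about 30 normalized reads, whose intervals are wide.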
